A study of Mus musculus with 2 samples.

Results

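The genes described here are 32 members of the glycolysis and hypoxia programme among the 32285 genes of the count tables, chosen by gene name. They hold 2 glucose transporters (Slc2a1, Slc2a3), the enzymes from hexokinase to lactate dehydrogenase, the 2 kinase-phosphatases that set fructose-2,6-bisphosphate (Pfkfb3, Pfkfb4), 2 monocarboxylate transporters (Slc16a1, Slc16a3), 3 mitochondrial regulators (Pdk1, Bnip3, Bnip3l), the oxygen-regulated factor Hif1a with 2 of its hydroxylases (Egln1, Egln3), and 3 further genes known to be induced by low oxygen (P4ha1, Ero1l, Ndrg1). They were measured in single cells sorted from liver tumours (hepatocellular carcinoma) that grew in MYC-ON mice. One group of mice had been gavaged with DMSO, the vehicle, and the other with STK, an agent that the labels do not describe further, and both groups carried the MYC-ON genotype. Tumours were dissociated, dead cells were excluded by DAPI, CD45-positive cells were sorted, and 1 library per group was made with 10x 5′ chemistry. The labels do not give the number, sex or age of the mice in a library, nor the promoter that drives MYC.

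Glycolysis turns glucose into pyruvate in the cytosol, and lactate dehydrogenase together with monocarboxylate transporters lets a cell dispose of that pyruvate as lactate. Hif1a protein is hydroxylated by the Egln enzymes and destroyed when oxygen is plentiful. When oxygen is scarce it accumulates and activates many glycolytic genes, and Egln3 and Pdk1 among others, by binding a core sequence that includes ACGTG. In immune cells glycolysis is also raised by activation and division, and neutrophils and activated T cells are known for heavy use of it.

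With 1 library per group no difference between DMSO and STK has a replicate check, no test was possible and no p-value is given. Levels are the UMIs of a gene per 1000000 UMIs of the same cells (CPM), and a UMI marks 1 captured RNA molecule whatever its length. All 95% intervals (exact Poisson for a level, exact conditional binomial for a ratio, Clopper-Pearson for a share) cover counting error only. The libraries held 79322966 (DMSO) and 81859811 (STK) UMIs, and 11152 and 10846 barcodes passed the filters, with 183 barcode sequences in common. Cells were assigned to 14 types by marker genes, with 98 to 1586 cells per leukocyte type and library. Ptprc, which encodes CD45, stood at 231 to 1201 CPM in the 13 leukocyte types but at 2.80 and 4.51 CPM in the cells gated as hepatocyte or tumour, which are therefore not the sorted population. The 2 libraries differ in more than treatment. Of cells that could be sexed from Xist or Y-linked RNA, 5.38 to 41.6% were female in the DMSO leukocyte types and 42.9 to 85.9% in the STK types, so sex and treatment cannot be told apart except within cells of 1 sex. RNA of 7 heat-shock and immediate-early genes was also lower in the 13 STK leukocyte types, from 1628 to 601 CPM in Treg cells and from 7030 to 3143 CPM in macrophages, but higher in STK hepatocyte or tumour cells (1077 and 2180 CPM), and its part in the results was not tested.

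The upstream stretches of 6 members are shown: Slc16a3, Pfkfb3 and P4ha1 because they differed most often between the libraries, and Ldha, Pgk1 and Bnip3 as classical targets of Hif1a with these letters near the start site. Each is written 5′ to 3′ on the gene's own strand and ends at the base before a RefSeq transcript start (GRCm38.p6), and capitals mark ACGTG or its reverse complement CACGT, which overlap in CACGTG.
Slc16a3, chr11:120949007-120949066, plus strand: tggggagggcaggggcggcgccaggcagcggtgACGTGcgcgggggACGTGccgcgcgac
Pfkfb3, chr2:11502091-11502160, minus strand: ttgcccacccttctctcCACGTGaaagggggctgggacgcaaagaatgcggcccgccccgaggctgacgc
P4ha1, chr10:59323236-59323295, plus strand: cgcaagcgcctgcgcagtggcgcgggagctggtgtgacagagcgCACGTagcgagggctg
Ldha, chr7:46845644-46845803, plus strand: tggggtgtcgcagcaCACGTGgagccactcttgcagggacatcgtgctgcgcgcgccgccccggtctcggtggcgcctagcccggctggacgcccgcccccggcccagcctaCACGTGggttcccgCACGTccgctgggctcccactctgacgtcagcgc
Pgk1, chrX:106186940-106187099, plus strand: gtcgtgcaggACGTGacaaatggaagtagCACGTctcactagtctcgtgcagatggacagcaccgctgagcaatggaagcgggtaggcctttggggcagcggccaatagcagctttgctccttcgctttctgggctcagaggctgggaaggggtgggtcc
Bnip3, chr7:138909507-138909626, minus strand: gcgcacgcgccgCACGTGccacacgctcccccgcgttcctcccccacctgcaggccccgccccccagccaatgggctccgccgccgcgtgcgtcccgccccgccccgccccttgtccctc

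RefSeq promoter windows, from 250 bases before to 50 after a start site, were matched for 29 of the 32 members. Slc2a3, Bnip3l and Ndrg1 had no entry. ACGTG on either strand was found in at least 1 window of 21 of the 29 members (72.4%), against 5886 of 27025 genes with a window (21.8%) and 2565 of the 8564 genes that had at least 50 UMIs in 1 of the 6 types compared below (30.0%). Counted per window, it was in 24 of 42 windows of members (57.1%) and 6447 of 32851 of all windows (19.6%). The palindrome CACGTG is a part of those matches and also the E-box letters that MYC binds. It was in 6 of the 29 members (20.7%), in 8.09% of all genes with a window and in 12.0% of those 8564 genes. Per window, it was in 6 of 42 windows of members (14.3%). The share was 7.15% of all windows and 10.1% of windows of those 8564 genes. A match describes letters in a window and is not evidence of a bound site.

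The members' summed level ordered the cell types in much the same way in both libraries. It was highest in the hepatocyte or tumour cells, at 14885 CPM in DMSO and 13992 CPM in STK, and next highest in Foxp3-positive regulatory T (Treg) cells, at 12260 and 11257 CPM. Conventional CD4 T cells followed at 9468 and 8001 CPM. B cells were lowest at 2972 and 2974 CPM, below plasmacytoid dendritic cells (pDC) at 4299 and 4478 CPM and migratory dendritic cells at 4684 and 4887 CPM. The types between them lay closer together. CD8 T cells, neutrophils, NK cells, monocytes, macrophages and the cDC1 and cDC2 dendritic cells spanned 5915 to 7701 CPM in DMSO and 6322 to 7980 CPM in STK, and their order was not the same in both libraries. Treg cells ranked 1st of the 13 leukocyte types in each library. RNA of cycling-marker genes also differed between types, and its part in this order was not tested. It stood at 1195 and 1108 CPM in hepatocyte or tumour cells and 1157 and 1071 CPM in Treg cells. In pDC it was 40.4 and 49.6 CPM, but in cDC1, a type of middle rank, 1102 and 1091 CPM. Hepatocyte marker RNA was present in every leukocyte type, at 229 to 917 CPM in DMSO and 190 to 923 CPM in STK, against 15750 and 15217 CPM in the hepatocyte or tumour cells, and its part in the leukocyte levels was not tested.

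**Figure D1:**
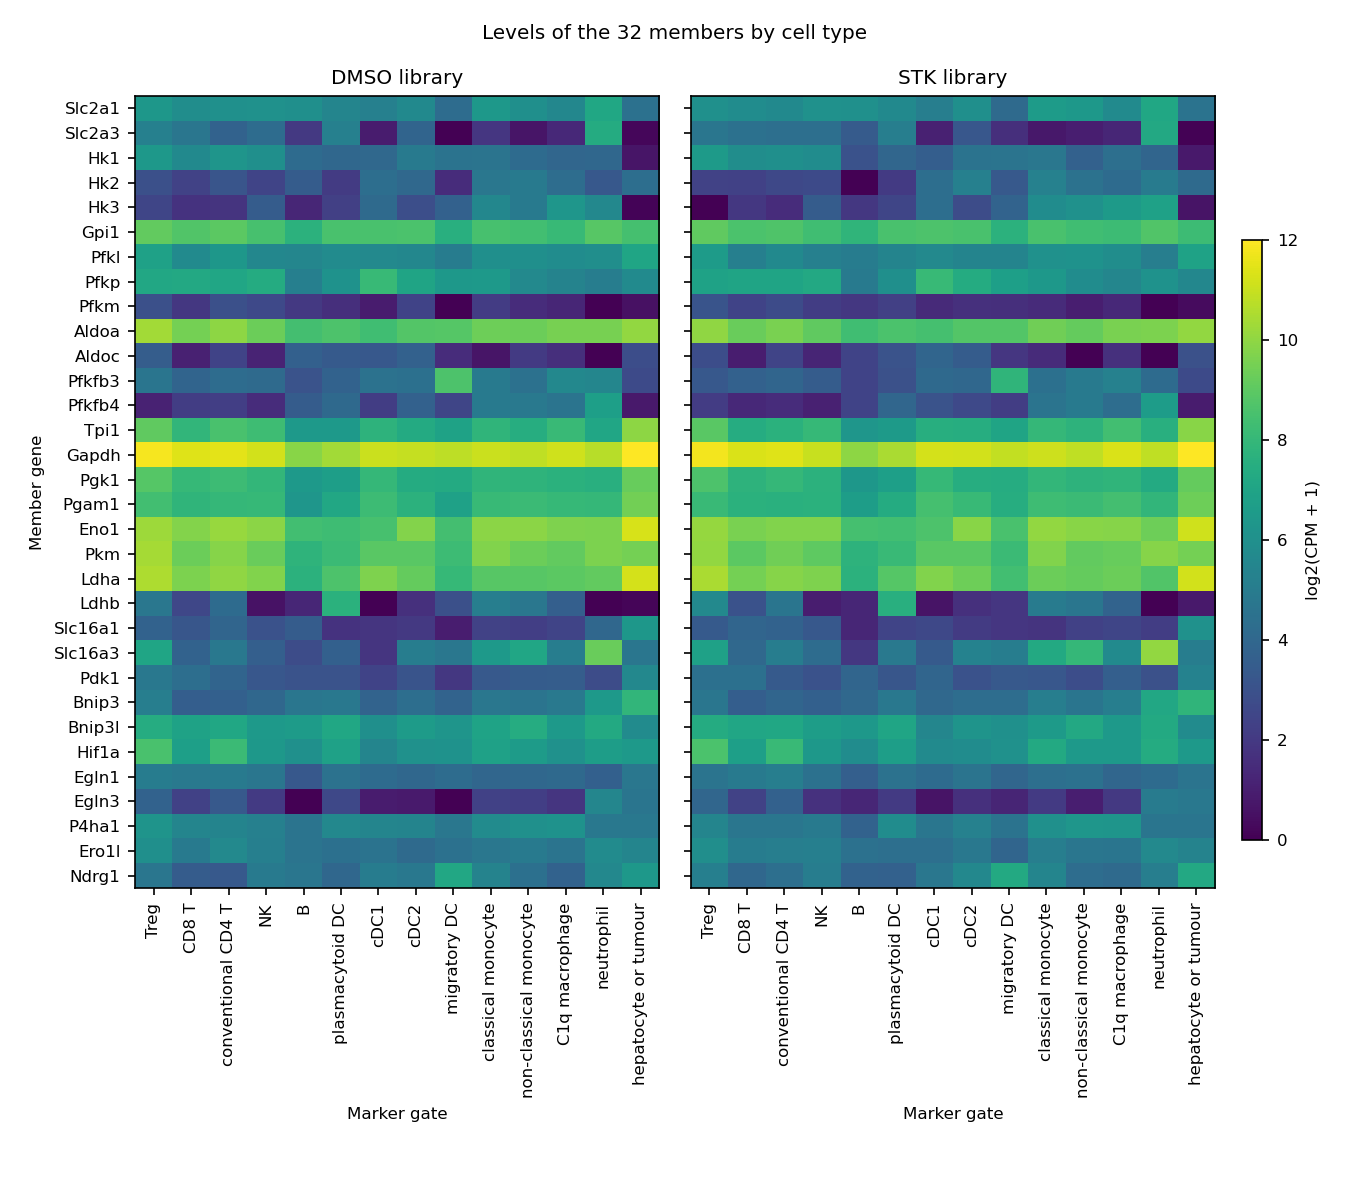
Heat map of log2(CPM + 1) for the 32 members (rows, ordered along the pathway) in the 14 marker-gated cell types (columns), DMSO library on the left and STK library on the right. The triose-to-lactate enzymes are high in every type and highest in hepatocyte or tumour cells and Treg cells, whereas Slc16a3 and Slc2a3 in neutrophils, Ldhb in plasmacytoid dendritic cells and Pfkfb3 in migratory dendritic cells stand out in 1 column of both panels.

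Of the 32 members, 25 differed by 4-fold or more between their highest and lowest type in both libraries (against a floor of 3 UMIs), and 23 of the 32 had the same highest type in both. The enzymes from triose phosphate to lactate were general and differed in amount. Gapdh, which oxidises glyceraldehyde-3-phosphate, ranged from 923 CPM in B cells to 4570 CPM in hepatocyte or tumour cells in DMSO and from 992 to 4222 CPM in STK. Tpi1, Pgk1, Pgam1, Eno1 and Ldha were also highest in hepatocyte or tumour cells in both libraries, with Ldha at 2430 and 2283 CPM there and 210 and 211 CPM in B cells. Pkm, the pyruvate kinase of most non-hepatic tissues, instead peaked in Treg cells at 1343 and 1078 CPM, with 226 and 214 CPM in B cells. The counts of Gapdh, Eno1, Pgk1, Ldha, Pgam1 and Aldoa may be incomplete, since these genes have near-identical processed copies and the way reads shared with them were counted is not given in the sources used here.

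Glucose entry was marked most in neutrophils. Slc2a1, which encodes the widespread transporter GLUT1, stood at 141 and 142 CPM in neutrophils, then 82.5 and 96.3 CPM in classical monocytes, and was lowest in migratory dendritic cells at 17.8 and 16.7 CPM. Slc2a3, which encodes the high-affinity transporter GLUT3, was far more restricted. It reached 168 and 149 CPM in neutrophils and 36.9 and 34.3 CPM in pDC, and stood at only 1.62 and 1.46 CPM in macrophages and 4 and 1 UMIs in all in hepatocyte or tumour cells. Slc2a3 thus made up 54.4% and 51.2% of the UMIs of the 2 transporters in neutrophils, 46.0% and 40.1% in pDC, and 3.38% and 2.73% in macrophages.

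Hexokinase, which traps glucose as glucose-6-phosphate, came mainly from different genes in different types. Hk1 made up 88.2% (95% interval 82.2 to 92.7) and 95.7% of hexokinase UMIs in Treg cells, and 88.5% and 89.3% in CD8 T cells. Hk3 made up 70.7% and 71.4% in macrophages expressing C1q and 66.7% and 71.7% in neutrophils. Hk2, the isozyme known as inducible and frequent in tumours, made up 96.5% and 92.5% in the hepatocyte or tumour cells. In each of these types the leading isozyme was the same in both libraries. In cDC2 it was not, with Hk1 leading in DMSO (56.3%, against 31.1% for Hk2) and Hk2 in STK (55.9%, against 34.9% for Hk1), and in cDC1 no isozyme held more than 39.1%. Hk1 also led in B cells, pDC and migratory dendritic cells. In CPM, Hk1 peaked in Treg cells (84.6 and 91.9) and Hk3 in macrophages and neutrophils (78.9 and 47.9 in DMSO, 92.7 and 114 in STK). Hk2 nowhere exceeded 37.6 CPM.

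**Figure D2:**
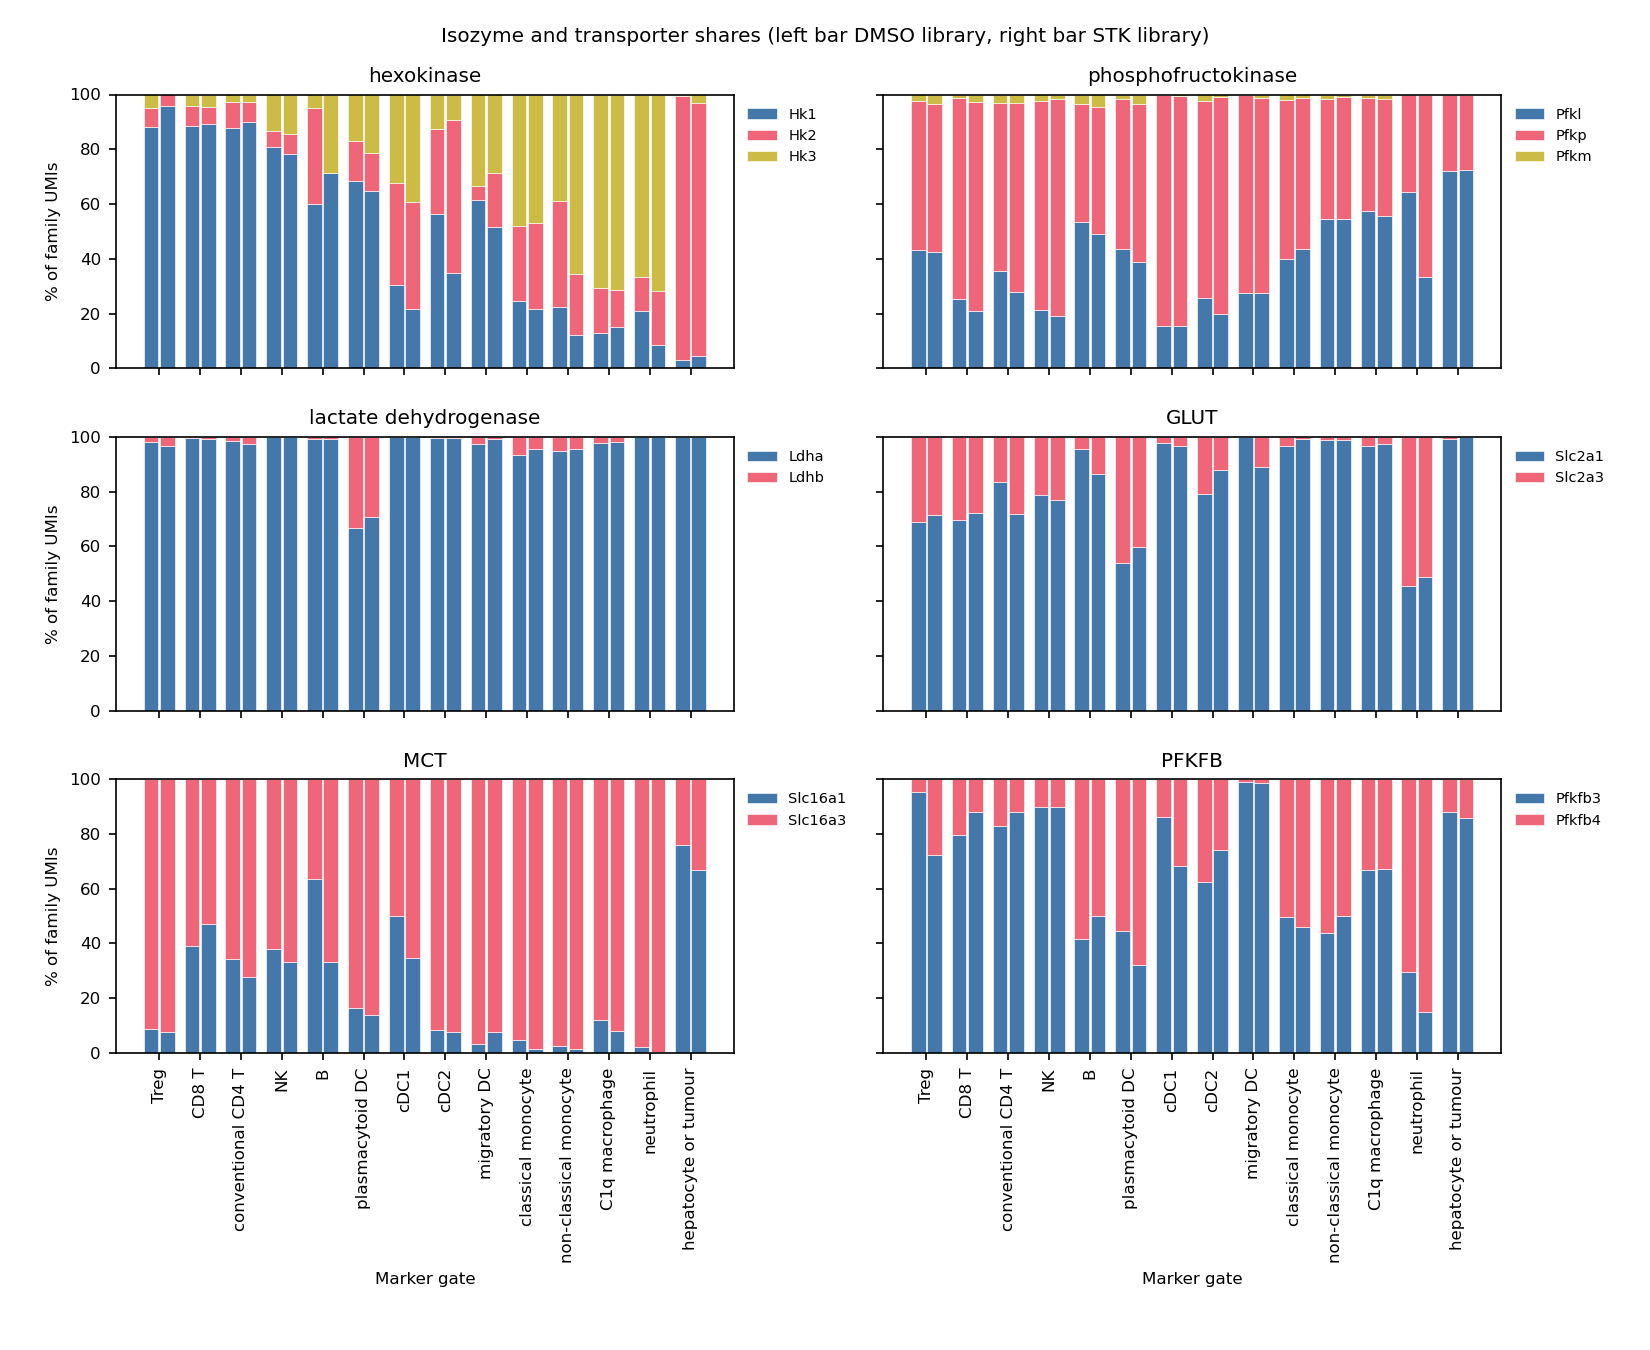
Stacked bars of the share of each gene in the UMIs of its family (% of family UMIs) in the 14 cell types, with the DMSO library as the left and the STK library as the right bar of each pair. Panels cover hexokinase, phosphofructokinase, lactate dehydrogenase, the glucose (GLUT) and monocarboxylate (MCT) transporters and the fructose-2,6-bisphosphate enzymes (PFKFB). Hk1 is most of the hexokinase in T and NK cells, Hk3 in macrophages and neutrophils and Hk2 in hepatocyte or tumour cells, Ldhb is visible mainly in plasmacytoid dendritic cells, and Slc16a1 exceeds Slc16a3 in both libraries only in hepatocyte or tumour cells.

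Among the phosphofructokinases, which commit the sugar to glycolysis, Pfkp was highest in cDC1, at 272 and 273 CPM, where it made up 84.4% and 84.2% of the family. Pfkl, the liver isozyme, was highest in hepatocyte or tumour cells at 134 and 120 CPM and made up 71.9% and 72.4% there. Pfkm, the muscle isozyme, stayed at 7.60 CPM or lower in every type and never reached 50 UMIs over both libraries. Of the aldolases, Aldoa held at least 96.1% of UMIs in every type and library with aldolase UMIs, and Aldoc never exceeded 14.2 CPM.

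The enzymes that tune phosphofructokinase through fructose-2,6-bisphosphate were the most type-restricted of the regulators. Pfkfb3, whose kinase activity dominates, stood at 401 CPM (95% interval 364 to 441) in DMSO migratory dendritic cells and 232 CPM (208 to 258) in STK ones. The next type, macrophages, had 48.2 and 37.9 CPM, and the distance to it was 8.31-fold and 6.12-fold. After each cell was thinned to 1000 UMIs, 26.3% and 23.8% of migratory dendritic cells had a Pfkfb3 UMI, against 0.990% and 1.02% of B cells, a type with little of this RNA (unthinned, 74.3% and 61.3% against 2.31% and 1.48%). Pfkfb4 was highest in neutrophils, at 108 and 96.9 CPM. Ndrg1, a hypoxia-induced gene of uncertain function, shared the migratory dendritic peak at 146 and 158 CPM, though in STK the hepatocyte or tumour cells were close at 150 CPM.

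At the lactate step, Ldha supplied nearly all lactate dehydrogenase except in pDC. Ldhb, the isozyme that favours the return of lactate to pyruvate, stood at 199 and 189 CPM in pDC. The next type was at 33.8 CPM (classical monocytes, DMSO) or 49.8 CPM (Treg cells, STK). Ldhb made up 33.3% and 29.3% of lactate dehydrogenase UMIs in pDC, 1.77% and 3.40% in Treg cells, and 0.0618% and 0.118% in NK cells. At 1000 UMIs per cell, 18.3% and 16.7% of pDC had an Ldhb UMI (57.0% and 59.0% unthinned), against 0 of 202 and 0 of 197 B cells, which allows a share of up to 1.49% and 1.52% (0.463% and 0.493% unthinned).

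Slc16a3 encodes MCT4, the exporter used by cells that release much lactate, and lies on chromosome 11 at 120948480 to 120960868 (GRCm38, plus strand). It was highest in neutrophils, at 616 CPM (95% interval 535 to 706) in DMSO and 1063 CPM (947 to 1189) in STK. Non-classical monocytes followed at 137 and 255 CPM, and among lymphocytes Treg cells stood apart with 132 and 114 CPM against 12.8 and 15.8 CPM in CD8 T cells. B cells had 4 and 2 UMIs in all. At 1000 UMIs per cell, 41.4% and 56.6% of neutrophils had a UMI of Slc16a3 (55.5% and 64.5% unthinned), against 0.990% and 0% of B cells, where 0 of 197 cells allows a share of up to 1.52%. Slc16a1, which encodes the general transporter MCT1, was instead highest in hepatocyte or tumour cells at 79.6 and 65.3 CPM, and the next among types with at least 10 UMIs had 14.1 CPM (conventional CD4 T cells, DMSO) and 14 CPM (CD8 T cells, STK).

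**Figure D3:**
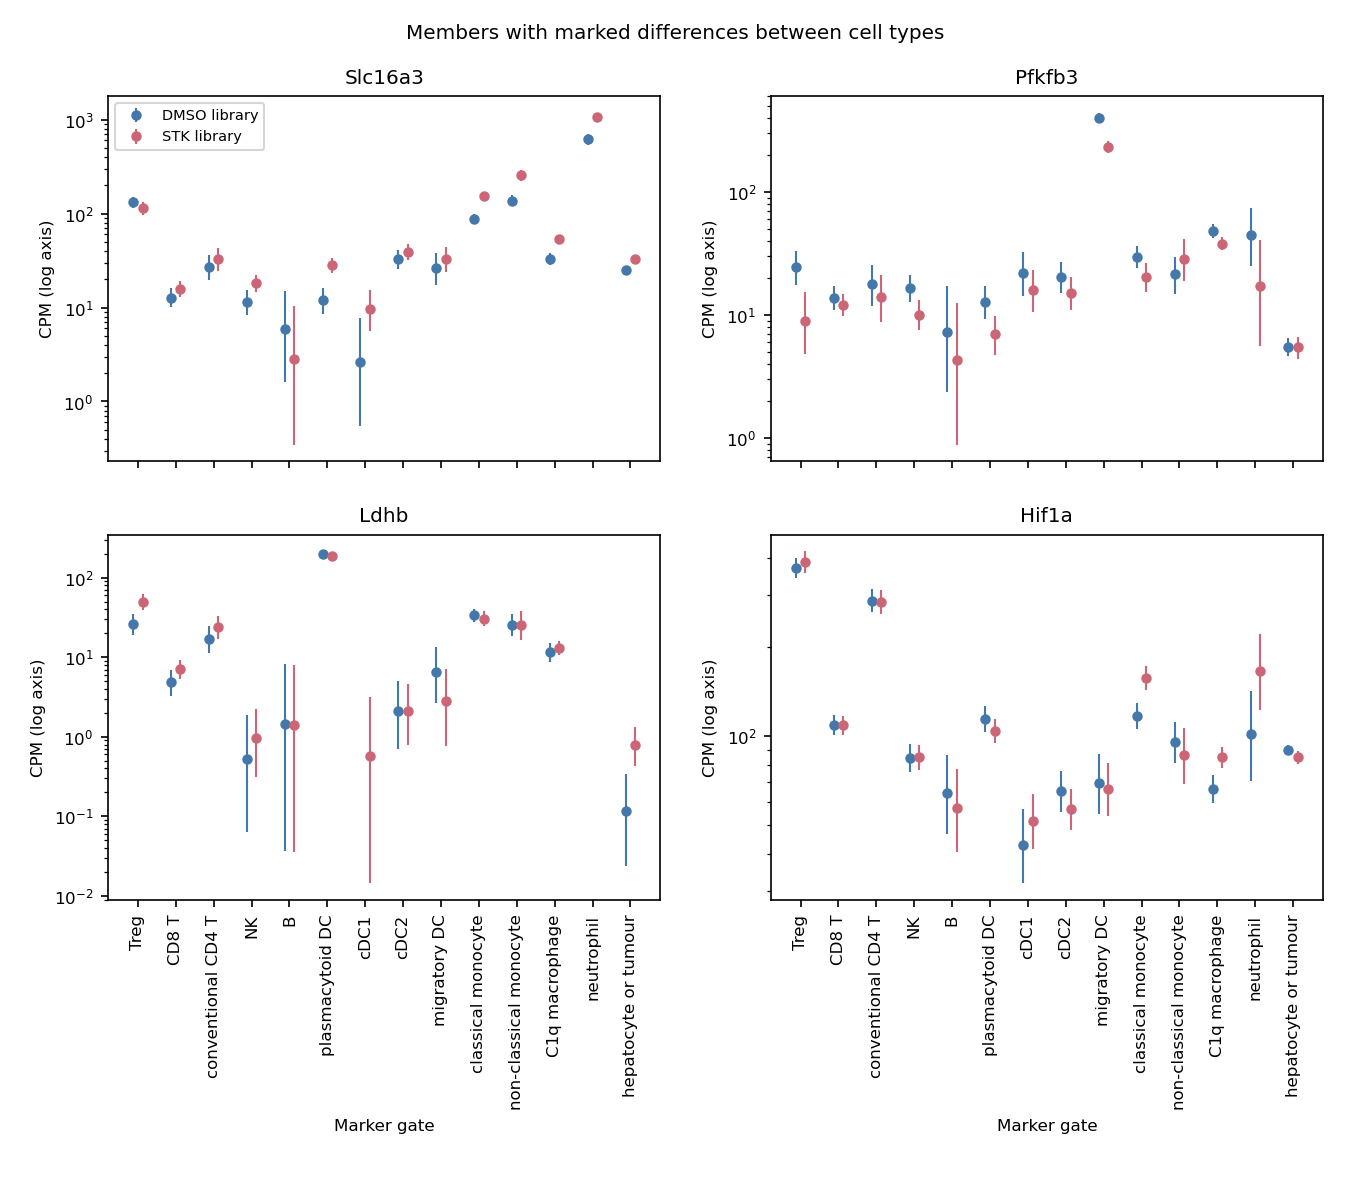
CPM on a log axis of Slc16a3, Pfkfb3, Ldhb and Hif1a in the 14 cell types, with points for the DMSO (blue) and STK (red) libraries and exact Poisson 95% intervals, and no point where a library had no UMI. Slc16a3 reaches 616 and 1063 CPM in neutrophils, Pfkfb3 401 and 232 CPM in migratory dendritic cells, Ldhb 199 and 189 CPM in plasmacytoid dendritic cells and Hif1a 369 and 387 CPM in Treg cells.

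Hif1a RNA was highest in the CD4 lineage. It stood at 369 and 387 CPM in Treg cells and 287 and 284 CPM in conventional CD4 T cells, against 109 CPM in CD8 T cells of both libraries and 66.5 and 84.9 CPM in macrophages, with the lowest levels in cDC1 (43.1 and 51.8). Egln1, the main hydroxylase of Hif1a, varied little, from 8.79 to 34.4 CPM. Egln3, an inducible hydroxylase, was at 44.9 and 31.2 CPM in neutrophils (15 and 9 UMIs) and 24.3 and 26.9 CPM in hepatocyte or tumour cells, and at most 14.5 CPM elsewhere. Bnip3, a mitophagy receptor induced by low oxygen, peaked in hepatocyte or tumour cells (238 and 228 CPM), with neutrophils next (86.8 and 145 CPM) and CD8 T cells lowest (11.1 and 11.2 CPM). Its relative Bnip3l was more even, at 43.8 to 171 CPM. Pdk1, a kinase that inhibits pyruvate dehydrogenase, was highest in hepatocyte or tumour cells at 47.9 and 38.8 CPM.

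Across the 13 leukocyte types, the level that followed the mean log2 level of the other members most closely was that of Pkm (Spearman rho 0.94 in DMSO and 0.93 in STK) and that of Aldoa was also close (0.88 and 0.89). Aldoc (-0.35 and -0.39) and Pfkp (-0.02 and -0.07) did not follow it. These are descriptions over 13 types that share a library and its depth, with no test.

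Between the libraries, the members were on balance lower in STK Treg, CD8 T and NK cells and higher in STK classical monocytes and macrophages, with median differences well under 1.5-fold. The median log2 ratio of STK over DMSO over members with at least 50 UMIs was -0.21 in Treg cells, -0.09 in CD8 T cells and -0.19 in NK cells, against -0.02, 0.02 and -0.06 over all genes of the same types with as many UMIs. In classical monocytes it was 0.14 and in macrophages 0.15, against -0.03 and -0.02 over all genes. In neutrophils it was 0.01 (0.05 over all genes). With each cell thinned once at random to 1000 UMIs, the CD8 T median was -0.01, with 14 of 28 members below 1. The Treg median was then -0.46, with 19 of 24 members below 1. Thinned medians were -0.14 in NK cells, 0.10 in classical monocytes and 0.17 in macrophages. The part of depth in these differences was not tested. A member was below 1 in 21 of 25 in Treg cells, 17 of 28 in CD8 T cells and 19 of 26 in NK cells, and above 1 in 20 of 27 in classical monocytes and 24 of 28 in macrophages. Of all genes with as many UMIs, 53.1% were below 1 in Treg cells, 46.9% in CD8 T cells and 58.4% in NK cells. The share below 1 was 53.2% in classical monocytes and 53.4% in macrophages. Of 23 members measured in all 5 of these types, 11 were lower in STK in each of the lymphocyte types and higher in each of the myeloid types. The opposite pattern was shown by 0, and the share of all genes with either pattern was not computed. Those 11 were Slc2a1, Gpi1, Pfkl, Aldoa, Tpi1, Gapdh, Pgk1, Pgam1, Eno1, Ldha and P4ha1, and for 2 of them, Pgam1 and Eno1, every one of the 5 intervals lay off 1. In female macrophages, however, Pgam1 and Eno1 had log2 ratios of 0.01 and -0.04. The neutrophils' 16 measured members were 7 below and 9 above 1.

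The 2 sexes apart gave part of this picture. In lymphocytes the median was below 0 in cells of either sex, at -0.15 (female) and -0.06 (male) in Treg cells, -0.04 and -0.24 in CD8 T cells, and -0.15 and -0.26 in NK cells. Members below 1 were 18 of 24 in female and 14 of 25 in male Treg cells. They were 15 of 27 and 18 of 28 in CD8 T cells, and 17 of 26 and 16 of 26 in NK cells. Medians over all genes were not computed within 1 sex. In macrophages it was -0.01 in female and 0.05 in male cells, and in classical monocytes 0.18 in female and -0.02 in male cells, so the higher level in STK myeloid cells did not hold in both sexes. The female DMSO cells numbered 38 macrophages, 36 classical monocytes, 16 Treg cells, 86 CD8 T cells and 59 NK cells.

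**Figure D4:**
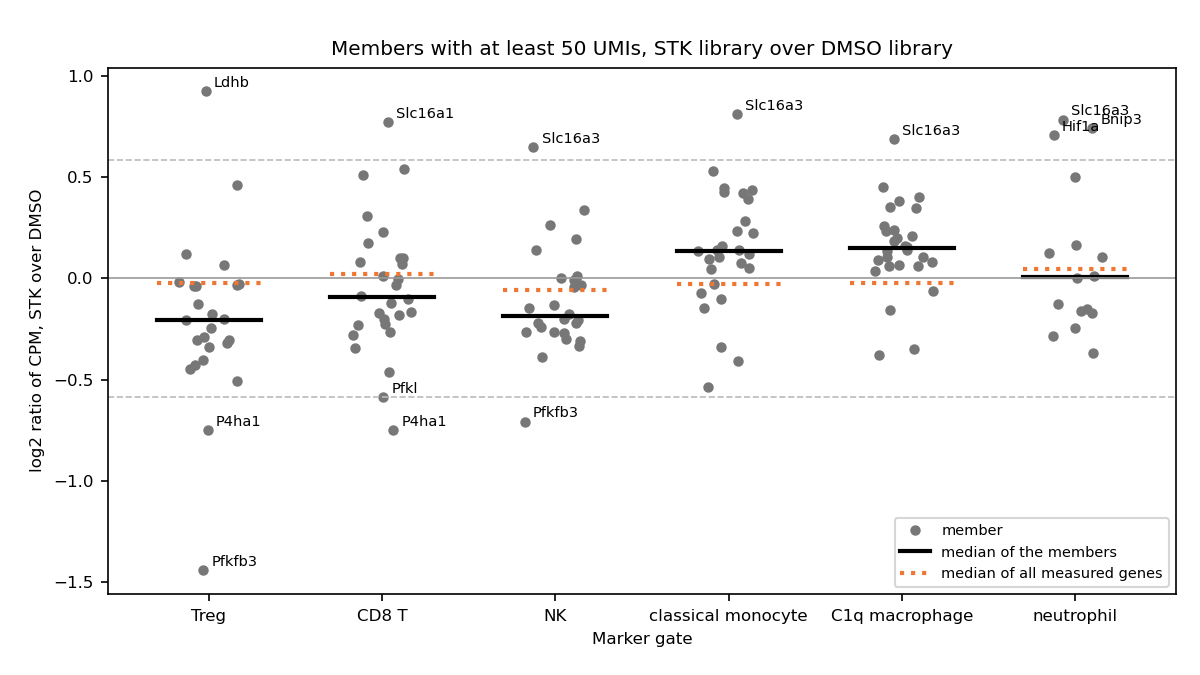
Log2 ratio of CPM, STK over DMSO, for each member with at least 50 UMIs (grey points) in 6 cell types, with the median of the members (black line), the median of all measured genes (dotted orange line) and 1.5-fold marked by dashed lines. The black line lies below 0 in Treg, CD8 T and NK cells and above 0 in classical monocytes and macrophages, and few points lie beyond 1.5-fold.

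By step of the pathway, the sums from hexokinase to pyruvate were lower in STK Treg, CD8 T and NK cells. The interval for Hif1a with its hydroxylases included 1 in each of these types. In Treg cells the 9 genes from hexokinase to aldolase summed to 2201 CPM in DMSO and 1896 CPM in STK (0.861-fold, 95% interval 0.819 to 0.905), and the 6 from triose to pyruvate to 7488 and 6897 CPM (0.921-fold, 0.897 to 0.946). CD8 T and NK cells had the same 2 steps at 0.858 and 0.888-fold and at 0.865 and 0.864-fold. Hif1a with its hydroxylases stood at 1.03-fold (0.921 to 1.15) in Treg cells, 1.01-fold (0.923 to 1.11) in CD8 T cells and 0.955-fold (0.841 to 1.09) in NK cells. The lactate step was at 0.978-fold (0.925 to 1.03) in Treg cells, 0.935-fold (0.900 to 0.972) in CD8 T cells and 0.983-fold (0.940 to 1.03) in NK cells. B cells did not share the lower sum from triose to pyruvate, at 1.05-fold (0.972 to 1.14). From hexokinase to aldolase they stood at 0.943-fold (0.825 to 1.08), an interval that holds 1 and also the Treg, CD8 T and NK values. Hif1a with its hydroxylases was 1.33-fold higher in STK classical monocytes (1.17 to 1.52) and 1.20-fold higher in macrophages (1.06 to 1.36). In macrophages the step from triose to pyruvate was 1.14-fold higher in STK (1.13 to 1.16) and the lactate step 1.29-fold higher (1.23 to 1.35). In classical monocytes the lactate step was 1.39-fold higher (1.31 to 1.48). The mitochondrial genes went the other way, with 1.15-fold in CD8 T cells (1.05 to 1.25) and 0.861-fold in classical monocytes (0.753 to 0.984). Their intervals included 1 in Treg cells (0.912-fold), NK cells (1.12-fold) and macrophages (1.08-fold). The fructose-2,6-bisphosphate enzymes were lower in STK in several lineages, at 0.780-fold in macrophages (0.673 to 0.903) and 0.740-fold in classical monocytes (0.587 to 0.930). They stood at 0.486-fold in Treg cells (0.264 to 0.860) and 0.615-fold in NK cells (0.426 to 0.883). Migratory dendritic cells had 0.581-fold (0.502 to 0.671), cDC2 0.625-fold (0.437 to 0.890) and pDC 0.743-fold (0.555 to 0.994). Intervals included 1 in the other types, among them CD8 T cells (0.797-fold, 0.599 to 1.06) and non-classical monocytes (1.17-fold, 0.813 to 1.66).

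Members past 1.5-fold were few, and in most types no more frequent than genes at large. In Treg cells 1 of 25 members was higher (4%, against 4.5% of all genes) and 2 were lower (8.00%, against 7.06%). In CD8 T cells 1 of 28 was higher (3.57%, against 5.18%) and 2 were lower (7.14%, against 4.56%). In NK cells 1 of 26 was higher and 1 lower (3.85% each, against 4.09% and 6.85%). In classical monocytes 1 of 27 was higher (3.70%, against 4.68%) and 0 were lower (against 7.01%), and in macrophages 1 of 28 was higher (3.57%, against 4.5%) and 0 lower (against 5.94%). Neutrophils had 3 of 16 higher (18.8%, against 10.5%) and 0 lower (against 14.4%). Each of these shares outside neutrophils rests on 0 to 2 members and lies near or under the background. Neutrophils have the fewest measured members.

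The member that recurred was Slc16a3. It was higher in STK in classical monocytes, from 87.9 to 155 CPM (1.76-fold, 95% interval 1.51 to 2.05), in macrophages, from 33.0 to 53.2 CPM (1.61-fold, 1.34 to 1.95), in NK cells, from 11.5 to 18 CPM (1.57-fold, 1.08 to 2.30), and in neutrophils (1.72-fold, 1.44 to 2.07). Outside the 6 types, it was also higher in non-classical monocytes (1.86-fold) and pDC (2.36-fold), 2 types picked out after their values were seen. Treg cells, the lymphocytes with most of it, did not share the difference (0.866-fold, 0.704 to 1.06).

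RNA of S100a8, S100a9 and Retnlg, genes of neutrophils, differed between the libraries in several of these types. It stood at 44.1 CPM in DMSO and 308 CPM in STK classical monocytes, 18.3 and 180 CPM in NK cells, and 108 and 1532 CPM in pDC, but at 21.9 and 3.64 CPM in macrophages and 1508 and 102 CPM in non-classical monocytes. In cells with no UMI of these genes Slc16a3 was 1.76-fold higher in classical monocytes (1.51 to 2.05), 1.61-fold in macrophages (1.33 to 1.95), 1.5-fold in NK cells (1.02 to 2.22) and 1.91-fold in non-classical monocytes (1.57 to 2.31). In pDC the ratio went from 2.36 to 1.41 (0.928 to 2.16), so there the interval came to include 1.

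Within 1 sex the Slc16a3 difference was uneven. Female classical monocytes had 94.2 CPM in DMSO and 176 CPM in STK (1.86-fold, 1.19 to 3.07), whereas male ones had 91.2 and 83.8 CPM (0.919-fold, 0.624 to 1.32). Male macrophages had 35.3 and 51.6 CPM (1.46-fold, 1.04 to 2.03), whereas female ones had 49.6 and 49.1 CPM (0.990-fold, 0.564 to 1.90), with 13 UMIs in DMSO. NK cells had 3.30-fold in females, from 2 DMSO UMIs, and 0.826-fold in males (0.203 to 2.51). Non-classical monocytes stood at 1.51-fold in female (1.01 to 2.33) and 1.06-fold in male cells (0.556 to 1.86), and pDC at 0.733-fold in female (0.436 to 1.30) and 2.45-fold in male cells (1.19 to 5.06). In none of these 5 types was Slc16a3 higher in STK cells of both sexes with an interval above 1. Neutrophils had few sexed cells and pointed up in both sexes, with no interval computed. Their log2 ratio was 1.38 in female cells (3 and 10 UMIs in 3 and 9 cells). In male cells it was 1.12 (33 and 18 UMIs in 35 and 12 cells).

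Pfkfb3 was lower in STK in most types where it was measured. It was 24.4 CPM in DMSO and 8.99 CPM in STK Treg cells (41 and 13 UMIs, 2.72-fold lower, ratio 0.368 with 95% interval 0.181 to 0.700) and 16.5 and 10.1 CPM in NK cells (1.63-fold lower, ratio 0.612, 0.416 to 0.898). Classical monocytes (0.689-fold) and macrophages (0.786-fold) pointed the same way, and CD8 T cells were at 0.882-fold (0.646 to 1.21). Migratory dendritic cells, the type with most of it, had 1.73-fold less in STK (0.579, 0.5 to 0.670), at 0.647-fold in female cells (0.360 to 1.28) and 0.556-fold in male cells (0.428 to 0.713). In male Treg cells it was 25 CPM in DMSO and 5.08 CPM in STK, from 25 and 2 UMIs, while female Treg cells had 0 UMIs in 16 DMSO cells and 5 in 79 STK cells. In Treg cells with no UMI of a cycling marker the log2 ratio went from -1.44 to -0.45, and in NK cells thinned to 1000 UMIs each it went from -0.71 to -0.07.

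P4ha1, a collagen prolyl hydroxylase subunit induced by low oxygen, was lower in STK T cells. It stood at 73.3 and 43.5 CPM in Treg cells (1.68-fold lower, ratio 0.594, 0.432 to 0.812) and at 42.6 and 25.4 CPM in CD8 T cells (1.68-fold lower, ratio 0.595, 0.490 to 0.722). In CD8 T cells it was lower in both sexes, at 0.575-fold in female (0.341 to 1.02) and 0.460-fold in male cells (0.294 to 0.696). In Treg cells the male cells had 0.705-fold (0.407 to 1.17), and the female cells had 1 UMI in DMSO and 24 in STK. Pfkl was 53.0 and 35.3 CPM in CD8 T cells (0.666-fold, 0.563 to 0.787), with 0.676-fold in female and 0.632-fold in male cells.

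The remaining members past 1.5-fold were higher in STK. Ldhb in Treg cells was 26.2 and 49.8 CPM (44 and 72 UMIs, 1.90-fold, 1.29 to 2.83), and 24 and 66.0 CPM in male Treg cells (2.75-fold, 1.52 to 5.0), whereas female Treg cells had 2 and 24 UMIs (1.14-fold, 0.282 to 9.93). Slc16a1 in CD8 T cells was 8.22 and 14 CPM (1.71-fold, 1.20 to 2.45), with 1.44-fold in male cells (0.759 to 2.67) and 1 and 50 UMIs in female cells. In neutrophils Bnip3 was 86.8 and 145 CPM (29 and 42 UMIs, 1.68-fold, 1.02 to 2.79) and Hif1a 102 and 166 CPM (34 and 48 UMIs, 1.63-fold, 1.03 to 2.61). The other members stayed within 1.5-fold in all of the 6 types where they had 50 UMIs, and Aldoc and Pfkm had too few UMIs in each of those types.

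Within CD8 T cells the enzymes were higher in cells with Havcr2 RNA, the gene of the exhaustion receptor TIM-3, and in cycling cells, in both libraries. Cells with a Havcr2 UMI (157 in DMSO, 171 in STK) had members summing to 11491 and 9914 CPM, against 6835 and 6242 CPM in cells without one. In DMSO 12 of 24 members were at least 1.5-fold higher in the Havcr2-positive cells (50%, against 14.7% of all genes) and 3 lower (12.5%, against 9.99%). In STK 10 of 26 were higher (38.5%, against 11.9%) and 2 lower (7.69%, against 10.6%). Aldoa, Gapdh, Ldha, Pfkl, Pgk1, Pkm, Slc16a3 and Tpi1 were higher past 1.5-fold in both libraries, and Pdk1 was lower. Tpi1, for example, stood at 448 against 187 CPM in DMSO (2.39-fold, 2.14 to 2.67) and 340 against 135 CPM in STK (2.51-fold, 2.23 to 2.82). Slc16a3 stood at 24.4 against 10.1 CPM in DMSO (2.41-fold, 1.45 to 3.93) and 37.0 against 11.3 CPM in STK (3.28-fold, 2.22 to 4.82).

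Havcr2-positive cells were deeper (median 5738 against 3977 UMIs in DMSO and 5279 against 3448 in STK) and more often cycling (43.9% against 19.2% and 43.3% against 18.8%). With cells free of cycling-marker UMIs alone the members' median log2 ratio went from 0.58 to 0.45 in DMSO and from 0.37 to 0.17 in STK, against 0.11 and 0.07 over all genes in the full comparison. Cycling CD8 T cells (268 and 340 cells) against non-cycling ones had 11 of 23 members higher in DMSO (47.8%, against 19.5% of all genes) and 2 lower (8.70%, against 10.5%), and 8 of 25 higher in STK (32%, against 17.1%) and 3 lower (12.0%, against 10.4%). Eno1, Gapdh, Ldha, Pgk1, Pkm, Slc16a3 and Tpi1 were higher in both and Pdk1 lower in both. Gapdh was 4073 against 1852 CPM in DMSO (2.20-fold) and 3576 against 1918 CPM in STK (1.86-fold). Cycling cells, called by UMIs of cycling markers, were also deeper, with median 7473.5 against 3526 UMIs in DMSO and 6952 against 3171.5 in STK. The part of depth in this contrast was not tested. P4ha1 was lower in STK cycling cells (18.2 against 30.0 CPM) and STK Havcr2-positive cells (13.1 against 28.0 CPM), but in DMSO it was 54.1 against 40.0 CPM in Havcr2-positive cells.

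Macrophages with Spp1 or Arg1 RNA, 2 genes of tumour-associated macrophages (90 cells in DMSO, 166 in STK), were compared with the other macrophages in the same way. In DMSO 2 of 27 members were higher (7.41%, against 5.01% of all genes) and 2 lower (7.41%, against 11.1%). In STK 5 of 27 were higher (18.5%, against 3.79%) and 0 lower (against 6.43%). The median log2 ratio was 0.12 in DMSO and 0.47 in STK, and whether the libraries differ in this was not tested. Slc16a3 alone passed 1.5-fold in both, at 49.6 against 30.6 CPM in DMSO (1.62-fold, 1.06 to 2.41) and 73.4 against 47.4 CPM in STK (1.55-fold, 1.23 to 1.94). In STK, Bnip3 was 56.5 against 27.1 CPM (2.09-fold, 1.58 to 2.74) and Pgam1 484 against 294 CPM (1.64-fold, 1.5 to 1.79).

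**Figure D5:**
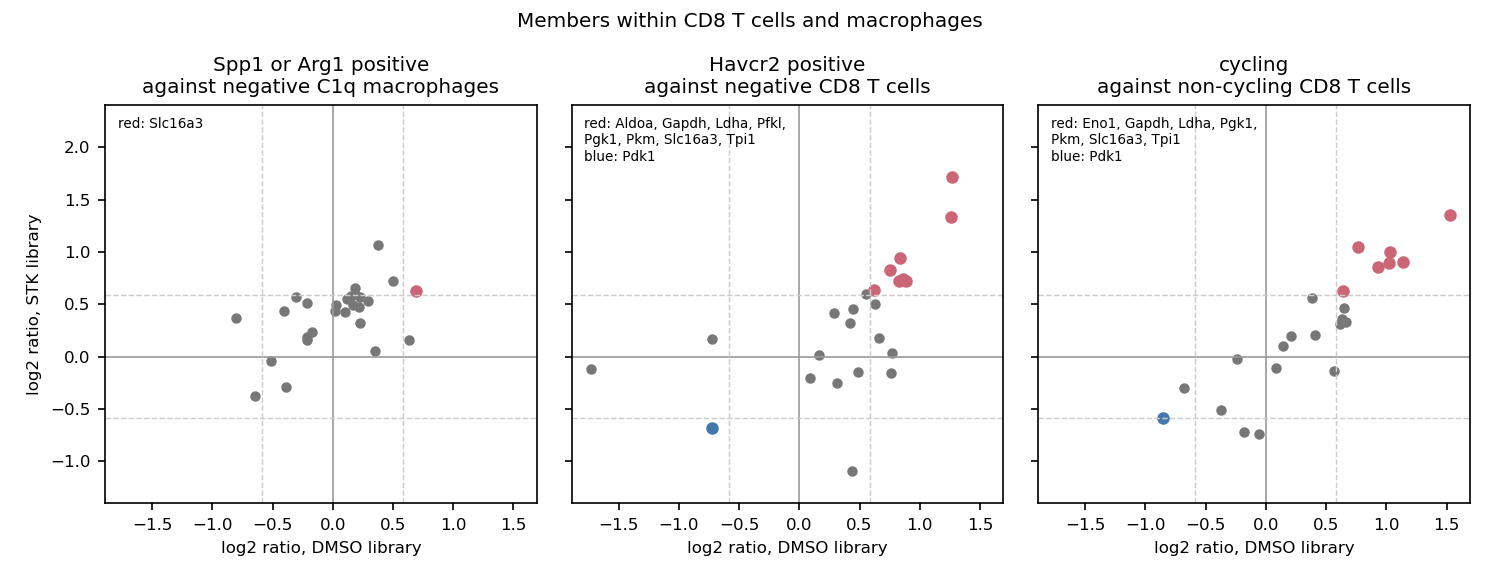
Log2 ratio of CPM between marker-positive and marker-negative cells of 1 library, DMSO library on the horizontal and STK library on the vertical axis, 1 point per member with at least 50 UMIs in both, with 1.5-fold as dashed lines. Members past 1.5-fold in both libraries are coloured red (higher) or blue (lower), with 8 red in Havcr2-positive and 7 in cycling CD8 T cells and 1, Slc16a3, in Spp1 or Arg1 positive macrophages.

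Among 73 other genes of glucose use and hypoxia, 15 to 47 had 50 UMIs in each of the 6 types. In Treg cells 2 of 35 were higher past 1.5-fold in STK (5.71%) and 4 lower (11.4%), in CD8 T cells 5 of 46 (10.9%) and 4 (8.70%), and in NK cells 3 of 45 (6.67%) and 5 (11.1%). In classical monocytes 7 of 37 were higher (18.9%) and 2 lower (5.41%), in macrophages 6 of 47 (12.8%) and 5 (10.6%), and in neutrophils 5 of 15 (33.3%) and 2 (13.3%). All these shares but those of lower genes in classical monocytes and neutrophils are above the shares of all genes given earlier, and the list was drawn up with results of these data known. A few went the same way in several types. Hilpda, a lipid droplet protein induced by low oxygen, was higher in STK in 6 of 6 types (81.3 and 221 CPM in macrophages, 88.9 and 216 CPM in NK cells), as was Bhlhe40, a transcription factor (63.0 and 122 CPM in macrophages, 324 and 518 CPM in Treg cells). Vegfa, the angiogenic factor, was higher in 5 of the 5 types where it was measured, from 17.6 to 83.7 CPM in macrophages and from 43.5 to 133 CPM in classical monocytes. Txnip, which restrains glucose uptake, was lower in 5 of 6 types, from 400 to 171 CPM in CD8 T cells, Ddit4, a stress-induced inhibitor of mTORC1, in 4 of 5, from 186 to 62.4 CPM in macrophages, and Hmox1, haem oxygenase, in 3 of 6, from 14.1 to 4.26 CPM in NK cells. Ddit4 and Hmox1 were listed as hypoxia-induced genes, as were Hilpda, Bhlhe40 and Vegfa, so the named genes of that group went both ways. With the sexes apart in the types other than neutrophils, with at least 20 UMIs in all and at least 3 in DMSO, Vegfa was above 1 in 6 of 6 comparisons, Hilpda in 10 of 10 and Bhlhe40 in 9 of 10, while Txnip was below 1 in 10 of 10, Ddit4 in 9 of 10 and Hmox1 in 6 of 9. These genes were named for their direction in the same cells, so such counts are not a separate check. The comparisons share 1 library per group, and the share of all genes going 1 way within a sex was not computed.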

How the data were processed

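The deposited files were 2 filtered gene-by-barcode matrices of whole UMI counts, made by the authors with Cell Ranger 6.0.2 per the file headers, on GRCm38 (mm10) per the submitters' processing notes. Which gene annotation and alignment options were used was not given in these sources. A barcode was kept when it had 500 or more UMIs, 250 or more detected genes and no more than 10% of UMIs from mitochondrial genes, which left out 632 of 11784 (DMSO) and 826 of 11672 (STK). Median depth of the kept barcodes was 4471.5 and 4930.5 UMIs. Cells were given a type by minimum UMIs of marker genes, with minimums set after the levels of those markers were seen. UMIs were then summed per type and library and divided by the type's total. Labels do not say whether a library pooled animals.

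Members and lists were chosen with earlier results of these data known. A gene counted as measured in a comparison at 50 UMIs over both libraries and was called past 1.5-fold, with a floor of 3 UMIs for folds between types. Full values are given for members past 1.5-fold in 1 of the 6 main types or differing 4-fold between types in both libraries. Of the 73 other pathway genes, those past 1.5-fold in the same direction in at least 3 of the 6 types are named. Aldoa is the sum of 2 feature identifiers. Cells were sexed by Xist or Y-linked UMIs. Doublets were scored with Scrublet in scanpy 1.11.5, and the top 8% of scores in each library were left out only as an alternative, which removed 870 and 836 kept barcodes. Other alternatives were a stricter gate, other size factors, other UMI and fold limits, thinning to 1000 UMIs a cell, 1 sex alone, and leaving out cells with hepatocyte, cycling or neutrophil RNA. Gene positions are from GENCODE on GRCm38 and promoter windows from RefSeq on GRCm38.p6. Python 3.11.15, numpy 2.4.6, scipy 1.17.1, pandas 2.3.3 and matplotlib 3.10.9 were used, and the ratio and its interval were tested on simulated data.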

Additional observations from a re-analysis of the deposited data

Results flagged for a closer look

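Most members measured in both types had STK over DMSO ratios of opposite direction in C1q-expressing macrophages and CD8 T cells, with 1 library per group in each. The count was made over the 23 members measured in both types and also in Treg cells, NK cells and classical monocytes. Of these 23, 14 were lower in CD8 T cells and higher in macrophages, 1 showed the opposite, and 8 went the same way in both types. Hk2, Ldhb and Slc16a1 were measured in both types but are not in this count, and each went the same way in both. The share of all genes with these directions was not computed. The log2 ratio in macrophages minus that in CD8 T cells was 0.58 for Pgam1, the phosphoglycerate mutase, and 0.33 for Eno1, the enolase that follows it in the pathway. For the median over all measured members the same difference was 0.24. In female cells alone these differences were 0.05 for Pgam1, 0.02 for Eno1 and 0.03 for the median, and in male cells alone 0.79, 0.29 and 0.29. The differences over all cells were therefore present in male cells and nearly absent in female cells, of which the DMSO library held 38 macrophages and 86 CD8 T cells. None of these differences was tested, since no group has a second library. Stress-gene RNA also differed between the libraries, and its part in these differences was not tested.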

How the results depend on the processing

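With 1 library per group no library could be left out. No paired analysis was possible because each group is 1 library. Of 79 alternative values for the medians and counts, 74 stayed close to the value reported (a median within the median bounds of the members' counting intervals, a count within 1.5 times) and 5 moved. For STK over DMSO these bounds included 0 in each of the 6 types, for example -0.25 to 0.16 in CD8 T cells. A median that vanished or changed sign could therefore count as close, and the 74 do not show that a direction held. Of the 75 alternatives for medians among them, 6 changed sign. The median became -0.02 in male classical monocytes, -0.006 in female macrophages and -0.002 in non-cycling DMSO macrophages with Spp1 or Arg1 RNA. In neutrophils it became -0.04 with other size factors, -0.13 with members of at least 10 UMIs and -0.07 with thinned cells. The Treg median log2 ratio was -0.46 with each cell thinned to 1000 UMIs, and the CD8 T median went from -0.09 to -0.01. The neutrophil median was 0.53 in female cells alone, over 8 members in 3 and 9 cells. At 2-fold, the counts added over the 6 types were 0 members higher and 1 lower, against 8 and 5 at 1.5-fold. With members of at least 10 UMIs included they were 12 and 14. Of 126 alternatives for single members and ranks, 111 stayed close, 11 moved and 4 reversed. The reversed log2 ratios were 1.19 for P4ha1 in female Treg cells (1 UMI in DMSO), -0.28 for Slc16a3 in male NK cells, -0.12 for Slc16a3 in male classical monocytes and -0.014 for Slc16a3 in female macrophages. The cause was not tested. Depth limits Aldoc and Pfkm in every main type, and neutrophils, where 16 members were measured.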

Other observations

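In the cells gated as hepatocyte or tumour (1091 in DMSO and 765 in STK), which the CD45 sort was meant to leave out, the members' median log2 ratio was -0.09, against -0.02 over all genes. Ndrg1, singled out after its value was seen, was 84.6 CPM in DMSO and 150 CPM in STK there (1.77-fold, 95% interval 1.67 to 1.88). In female cells of that gate it was 125 and 126 CPM (1.00-fold, 0.918 to 1.10), and in male cells 74.2 and 277 CPM (3.74-fold, 3.38 to 4.13). Female cells were 31.1% of sexed cells there in DMSO and 85.6% in STK. Stress-gene RNA was 1077 and 2180 CPM. The part of stress-gene RNA in the difference was not tested. Conventional CD4 T cells had 18 of 22 measured members below 1, with a median log2 ratio of -0.28 against -0.04 over all genes.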
